A study of Mus musculus with 5 samples.

Results

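Ribosomal protein pseudogenes were measured in differentiated mouse muscle cells of 2 genotypes. They were the genes whose GENCODE M21 biotype contains the word pseudogene, whose symbol begins with Rpl or Rps, and whose normalized count was 5 or more in any of the 5 samples. They were selected on these levels, so the levels are a description. Of 301 such pseudogenes among the 54232 genes of the table, 99 met the rule, 108 lay above 0 but below 5, and 94 were at 0 in every sample. By biotype, 95 were processed pseudogenes and 4 were transcribed processed pseudogenes.

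The samples were primary myoblasts from mouse muscle, differentiated for 72 h and profiled by poly(A) RNA sequencing, with 3 wild-type (WT) samples and 2 samples of the EID genotype. EID mice (Elmo2EID/EID) carry a knock-in mutation of Elmo2, in every cell of the body, that favours the open conformation of ELMO2, an adaptor of the DOCK exchange factors that activate Rac during myoblast fusion. Both genotypes came from mice on a mixed C57BL6 and 129SV background, and myoblasts were taken from young adult mice a few weeks old. The labels do not say that samples came from separate mice or cultures, so p-values measure only the spread between these samples. The samples held 35021856 to 49381544 reads assigned to genes, and 3 reads were worth 2.65 to 3.73 normalized counts. Elmo2 itself, whose transcript the knock-in is not designed to remove and which therefore does not check the labels, had 1642, 1539 and 1660 normalized counts in WT and 1441 and 1327 in EID. Of 9 myoblast and myotube markers, 8 were not called, Des, Myog, Acta1 and Ckm among them, all high in every sample. Pax7, the satellite cell factor, was called lower, with 922, 942 and 837 normalized counts in WT and 414 and 298 in EID (adjusted p = 0.0076 by limma). The summed level of 5 endothelial markers was 783, 266 and 861 in WT and 1819 and 2569 in EID, with 0 of the 5 past the adjusted threshold by limma and by edgeR, 1 by DESeq2 and 4 at an unadjusted p under 0.05, while the sums ran from 190 to 1404 in WT and from 1037 to 1100 in EID for 5 fibroblast markers, from 78.5 to 527 and from 381 to 637 for 5 Schwann markers, and from 27.3 to 59.4 and from 40.3 to 192 for 5 macrophage markers. Their part in the results was not tested. In bulk RNA, fewer cells of a type and less RNA per cell cannot be told apart.

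Cytosolic ribosomes are built from ribosomal RNA and a set of proteins, each encoded in mouse by 1 or a few intron-containing genes that every cell transcribes heavily. Their mRNAs have often been reverse transcribed and inserted elsewhere in the genome, which leaves processed pseudogenes: copies without introns, scattered over the chromosomes and usually without the promoter of the original gene. A copy that is nearly identical to the coding gene shares most of its short reads with it, and only differing bases, or the absence of introns, tell the 2 apart. The authors counted uniquely mapped read pairs of 50 bases, on the strand of the gene.

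The coding gene behind each copy was found by aligning each pseudogene to the protein-coding transcripts. A match over at least 50% of the pseudogene was found for 98 of the 99, with Rpl13-ps1 as the exception, and the matches named 51 coding genes. The identity had a median of 98.8% and a minimum of 79.7%, and 11 copies were identical to their match over the aligned length. The copies lay on 20 chromosomes. In the annotation, 65 were intergenic, 32 lay in introns of protein-coding genes and 2 overlapped an exon of one. Short stretches of the copies on which the results turn are shown next, each beside the mRNA of its coding gene (GENCODE M21, GRCm38). Letters are lower case except that, in a copy, capitals mark bases that differ from the coding gene, and, in the coding gene, capitals mark bases at which at least 1 of its copies with an Rpl or Rps symbol differs. Substitutions are written as the base of the coding gene, the position counted from 1 at the first base of its start codon, and the base of the copy.

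The Rpl3 family is shown because its 2 copies on chromosome X had opposite differences between genotypes. Rpl3 (chr15:80082504-80082554, minus strand) encodes a large subunit protein that reaches towards the peptidyl transferase centre. Rpl3-ps1 (chrX:13202603-13202653, plus strand) differed from it by C57A and T786C only, and the first of these was in none of the other 4 tested copies while the second was in all 4. Rpl3-ps2 (chrX:74170684-74170734, plus strand) matched the coding gene throughout this stretch and differed at 10 bases in all.
Rpl3: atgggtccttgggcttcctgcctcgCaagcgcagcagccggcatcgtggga
Rpl3-ps1: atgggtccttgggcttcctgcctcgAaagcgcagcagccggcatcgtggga
Rpl3-ps2: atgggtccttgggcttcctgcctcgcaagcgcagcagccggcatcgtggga

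The Rps13 family is shown because 1 copy was close to absent in WT while another had lower values in both EID samples that did not pass the test. Rps13 encodes a small subunit protein, and its stretch (chr7:116331553-116332397, minus strand) is spliced across an intron. Rps13-ps1 (chr8:87048123-87048172, plus strand) differed from it by T411C, which Rps13-ps4 (chr8:119602173-119602222, minus strand) shared, and by A429G, which no other tested copy had. Rps13-ps2 (chr7:88530446-88530495, minus strand) was identical to the mRNA over its whole annotated length.
Rps13: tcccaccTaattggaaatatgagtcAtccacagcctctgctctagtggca
Rps13-ps1: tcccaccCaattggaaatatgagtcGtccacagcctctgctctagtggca
Rps13-ps4: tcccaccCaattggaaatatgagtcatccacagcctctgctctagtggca
Rps13-ps2: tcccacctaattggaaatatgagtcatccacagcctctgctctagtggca

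The Rps15a family is shown because it held the most copies with an Rpl or Rps symbol that were called higher in EID. Rps15a encodes a small subunit protein, and its stretch (chr7:118114856-118115150, minus strand) is also spliced across an intron. Rps15a-ps8 (chr4:53791315-53791365, minus strand) and Rps15a-ps6 (chr11:6172895-6172945, minus strand) carried C117T, and Rps15a-ps3 (chr4:150847206-150847256, plus strand) did not. C117T was in 2 of the 3 copies called higher and in 0 of the 4 others. The third copy called higher, Rps15a-ps5, is not printed and matched the coding gene throughout this stretch. Rps15a-ps8 had the lowest identity of the 10 pseudogenes called higher, 92.2%, with 30 differences.
Rps15a: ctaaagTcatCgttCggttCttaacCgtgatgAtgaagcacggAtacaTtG
Rps15a-ps8: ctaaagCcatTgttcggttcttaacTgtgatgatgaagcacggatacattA
Rps15a-ps6: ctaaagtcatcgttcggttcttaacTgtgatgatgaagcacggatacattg
Rps15a-ps3: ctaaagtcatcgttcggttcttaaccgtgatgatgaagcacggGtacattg

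Rps3a1, Rplp0 and Rpl15 follow, because copies of each were higher in EID. The stretch of Rps3a1 (chr3:86141308-86141358, minus strand), a small subunit gene, separated Rps3a3 (chr13:108670837-108670887, plus strand) from Rps3a2 (chr14:88123524-88123574, minus strand) by T260C. In Rplp0 (chr5:115561145-115561195, plus strand), which encodes the base of the ribosomal stalk, A390G was present in Rplp0-ps1 (chr3:93278505-93278555, plus strand) and in all 5 further tested copies, 2 of which are printed, Gm8730 (chr8:102865384-102865434, minus strand) and Gm9625 (chr13:67810610-67810660, plus strand). In Rpl15 (chr14:18270345-18270395, minus strand), a large subunit gene, T81C was present in 7 of the 8 copies called higher, Rpl15-ps2 among them (chr9:72060990-72061040, plus strand), and in 1 of the 2 not called.
Rps3a1: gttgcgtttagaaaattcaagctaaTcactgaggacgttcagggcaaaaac
Rps3a3: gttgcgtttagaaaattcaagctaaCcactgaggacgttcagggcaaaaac
Rps3a2: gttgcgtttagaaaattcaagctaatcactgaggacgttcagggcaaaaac
Rplp0: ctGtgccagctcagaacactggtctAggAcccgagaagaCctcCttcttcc
Rplp0-ps1: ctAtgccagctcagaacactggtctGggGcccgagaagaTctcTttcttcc
Gm8730: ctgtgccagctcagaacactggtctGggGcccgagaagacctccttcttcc
Gm9625: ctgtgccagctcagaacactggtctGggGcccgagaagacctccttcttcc
Rpl15: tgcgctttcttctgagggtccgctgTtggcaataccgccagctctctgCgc
Rpl15-ps2: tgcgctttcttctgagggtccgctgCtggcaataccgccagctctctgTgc

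Most of the 99 pseudogenes were low. Their highest sample was at least 1000 normalized counts for 3, between 100 and 1000 for 14, between 20 and 100 for 29 and between 5 and 20 for 53. At the edge of the rule, Rps18-ps2 and Rpl36a-ps3 reached 5.30 and Rpl30-ps10 reached 5.37, while Rpl13-ps6 reached 4.97 and Rpl17-ps9, Rpl29-ps2 and Rpl7a-ps3 reached 4.49 and stayed out. By genotype, 78 reached 5 in both, 9 in EID alone and 12 in WT alone, and for these 21 a difference follows in part from the rule. More than 3 reads were counted in every sample for 69 of the 99.

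The 2 genotypes were compared with limma on log2(normalized count + 1), with p-values adjusted by the Benjamini-Hochberg method over 18156 genes and called at an adjusted p under 0.05. Of the 99 pseudogenes, 10 were called higher in EID, against 1.09% of all genes tested, and 1 was called lower, against 1.14% of all genes tested. Of the 10, 4 were under 5 normalized counts in every WT sample, Rps13-ps1, Rpl15-ps2 and Rps15a-ps8 among them, so they met the level rule through EID alone, and the count and the p-values of these are no support for a difference beyond it. The 10 included Rps13-ps1, Rpl15-ps2, Rps3a3, Rps15a-ps8, Rplp0-ps1, Rpl3-ps1, Rps15a-ps5, Rps3a2 and Rps15a-ps6, and the 1 was Rpl3-ps2. They are copies of only 7 coding genes. The 11 lay on 9 chromosomes. The median log2 fold change of the 99 was -0.06, beside 0.01 over all genes tested, and that of the 88 not called was -0.12. The number called higher fell to 3 when either EID library was left out, which leaves that genotype with 1 sample assumed to vary like the others.

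**Figure D1:**
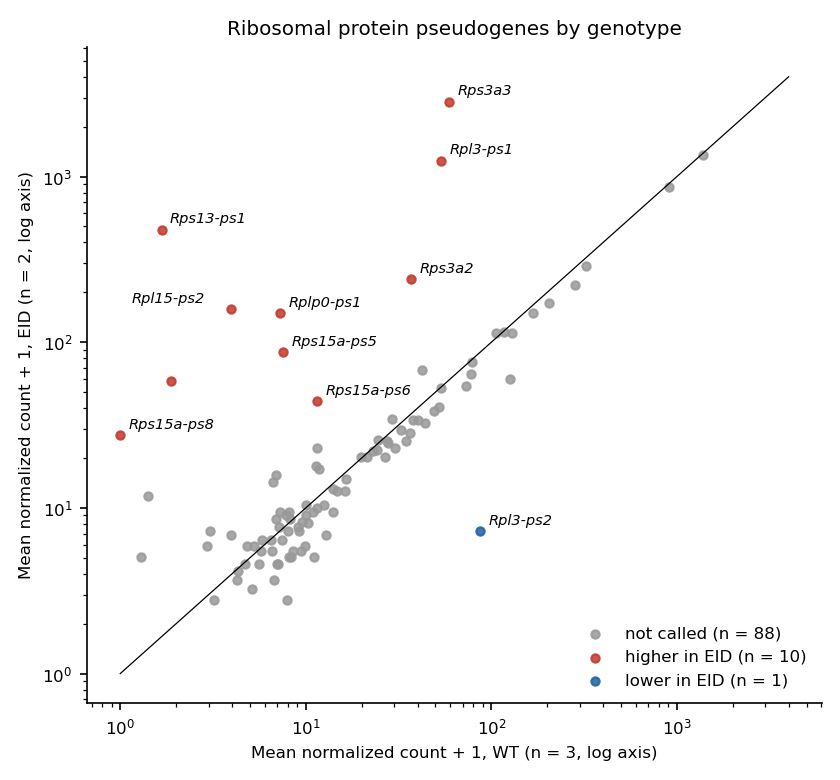
Mean normalized count plus 1 of the 99 ribosomal protein pseudogenes in WT (x axis, n = 3) and EID (y axis, n = 2), both on log axes, with the line of equality and colours for the call by limma. The 88 that were not called mostly follow the line, 10 lie above it and Rpl3-ps2 lies below it.

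Rps3a3 had the highest normalized count in EID among the 99. WT samples gave 60.1, 65.1 and 49.7 normalized counts for it, and EID samples gave 2720 and 2944. The genotypes did not overlap, and the log2 fold change was 5.59 ± 0.14 (SE, adjusted p = 5.9e-05 by limma). Per kilobase of transcript, its mean level was 0.468% of that of the coding gene Rps3a1 in WT and 36.5% in EID. It lies in an intron of Pde4d on the same strand (chr13:108670603-108671397, plus strand), and Pde4d, a phosphodiesterase gene, had a log2 fold change of -0.18 (adjusted p = 0.42 by limma). Rps3a2, the other copy of Rps3a1 with an Rps symbol (chr14:88123017-88123808, minus strand), had 32.7, 43.7 and 31.1 normalized counts in WT and 245 and 234 in EID. Its log2 fold change was 2.72 ± 0.21 (SE, adjusted p = 0.0023 by limma), a call lost without either EID sample, with an adjusted p of up to 0.058. Of the 9 bases at which Rps3a3 differed from Rps3a1 and the 4 at which Rps3a2 did, T216C and T534C were in both copies, and each was also in 3 or more of the 5 copies that were not called.

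The 2 copies of Rpl3 moved in opposite directions. Rpl3-ps1 (chrX:13202571-13203780, plus strand) had 46.8, 52.7 and 58.4 normalized counts in WT and 1242 and 1250 in EID, with a log2 fold change of 4.54 ± 0.14 (SE, adjusted p = 5.9e-05 by limma). Rpl3-ps2 (chrX:74170653-74171866, plus strand) had 101, 84.1 and 73.3 in WT and 8.05 and 4.48 in EID, with a log2 fold change of -3.62 ± 0.32 (SE, adjusted p = 0.0039 by limma). Neither copy overlapped between genotypes. Both carry T786C, and 91.4% of the 50-base words of Rpl3-ps1 and 58.1% of those of Rpl3-ps2 occur in transcripts of Rpl3, so that reads of the first in particular may be shared with the coding gene. Rpl3 itself had 13423, 12438 and 11065 normalized counts in WT and 8885 and 9277 in EID, a log2 fold change of -0.44 ± 0.09 (SE) that did not pass the test (adjusted p = 0.068 by limma). It was called lower under quantile normalization, by DESeq2 and without the third WT sample, and the adjusted p ran from 0.0014 to 0.33 over the 16 fits. The remaining 3 tested copies of Rpl3, Gm5851, Gm5879 and Gm12816, were not called. Because both copies are X-linked, sex-linked genes were read in the same samples. Xist, the RNA of the inactive X chromosome, had 11825 to 14394 normalized counts in WT and 13181 and 19014 in EID, and the Y-linked genes Kdm5d, Eif2s3y, Uty and Ddx3y had at most 1 read in any sample.

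Rps13-ps1 was close to absent in WT. WT samples gave 0.884, 1.12 and 0 normalized counts for it, 2 reads in all, and EID samples gave 460 and 496, or 1067 reads in all (chr8:87047689-87048226, plus strand). The ratio of read rates was 675, with an exact 95% interval of 187 to 5584 that covers counting error only, and the log2 fold change was 8.24 ± 0.42 (SE, adjusted p = 5.9e-04 by limma), the largest of the 99. Rps13-ps2 had 140, 113 and 119 normalized counts in WT and 48.3 and 69.0 in EID. The genotypes did not overlap, but the log2 fold change of -1.09 ± 0.22 (SE) did not pass the test (adjusted p = 0.062 by limma), and every 50-base word of this copy also occurs in Rps13 mRNA, so its counts are uncertain. Rps13-ps4, the third tested copy, had a mean of 6.42 ± 2.22 in WT (SD, n = 3) and 5.37 ± 1.26 in EID (SD, n = 2). The coding gene had 6194, 6258 and 5460 normalized counts in WT and 5140 and 5120 in EID, with a log2 fold change of -0.22 that did not pass the test (adjusted p = 0.25 by limma).

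Rps15a had 7 copies among the 99, and all 7 were higher in both EID samples than in every WT sample, a pattern shown by 16.7% of all genes tested. Of the 7, 2 were under 5 normalized counts in every WT sample, Rps15a-ps8 and Rps15a-ps2, and had to differ in this direction to be among the 99, so the count of 7 is a description only. The test was passed by 3 of them. Rps15a-ps5 had 3.53, 11.2 and 4.97 normalized counts in WT and 76.9 and 95.9 in EID, with a log2 fold change of 3.65 ± 0.47 (SE, adjusted p = 0.016 by limma), a call lost without either EID sample, with no filter and without a trend. Rps15a-ps6 had 11.5, 11.2 and 8.70 in WT and 49.2 and 36.8 in EID, with a log2 fold change of 1.93 ± 0.31 (SE, adjusted p = 0.036 by limma). This call was lost when any 1 of the 5 samples was left out, with the replicate number as a block and with no filter on low values, and the adjusted p reached 0.20 over the alternatives. Rps15a-ps8 had no read in any WT sample and 22.4 and 30.5 normalized counts in EID. Against a floor of 3 reads per library it was at least 7.08-fold higher in EID (adjusted p = 0.0065 by limma for the fitted difference), and this call was lost without either EID sample, with an adjusted p of up to 0.0998. Rps15a-ps2 had 0, 0 and 1.24 in WT and 13.4 and 8.07 in EID (adjusted p = 0.063 by limma), and the other 3, Rps15a-ps3, Rps15a-ps4 and Rps15a-ps7, had log2 fold changes of 1.20, 1.25 and 0.67 that did not pass the test either. Rps15a itself had 9772, 9836 and 8097 normalized counts in WT and 7586 and 7671 in EID (adjusted p = 0.25 by limma).

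Rpl15-ps2, in an intron of Tcf12 on the opposite strand, had 4.42, 4.49 and 0 normalized counts in WT and 160 and 154 in EID. Its log2 fold change was 5.67 ± 0.77 (SE, adjusted p = 0.019 by limma). This call was lost without either EID sample, with no filter on low values and without a trend, and the adjusted p reached 0.20. It was the only one of the 99 with more than 3 reads in some samples and none in another of the same genotype while reaching at least 20 normalized counts, the WT samples holding 5, 4 and 0 reads. Tcf12, a transcription factor gene, had a log2 fold change of -0.13 (adjusted p = 0.42 by limma).

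Rplp0-ps1 differed between the EID samples as well as between genotypes. It had 11.5, 1.12 and 6.22 normalized counts in WT and 91.2 and 207 in EID, with a log2 fold change of 4.59 ± 0.76 (SE, adjusted p = 0.037 by limma). This call was lost without the third WT sample or either EID sample, with the replicate number as a block, with no filter on low values and without a trend, and the adjusted p reached 0.32. The second EID sample was 2.27 times the first. The other 5 tested copies of Rplp0, which carry Gm symbols, were all called higher, and their second EID sample was 1.88 to 2.47 times the first. The largest of them, Gm8730, had 80.4, 62.8 and 63.4 in WT and 2313 and 5181 in EID, and Gm9625 had 182, 172 and 168 in WT and 1232 and 2699 in EID. The coding gene Rplp0 went the other way, with 38944, 38482 and 32736 in WT and 22704 and 15811 in EID, so that its second EID sample was 0.696 of the first. Its log2 fold change was -0.95 ± 0.16 (SE, adjusted p = 0.037 by limma).

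**Figure D2:**
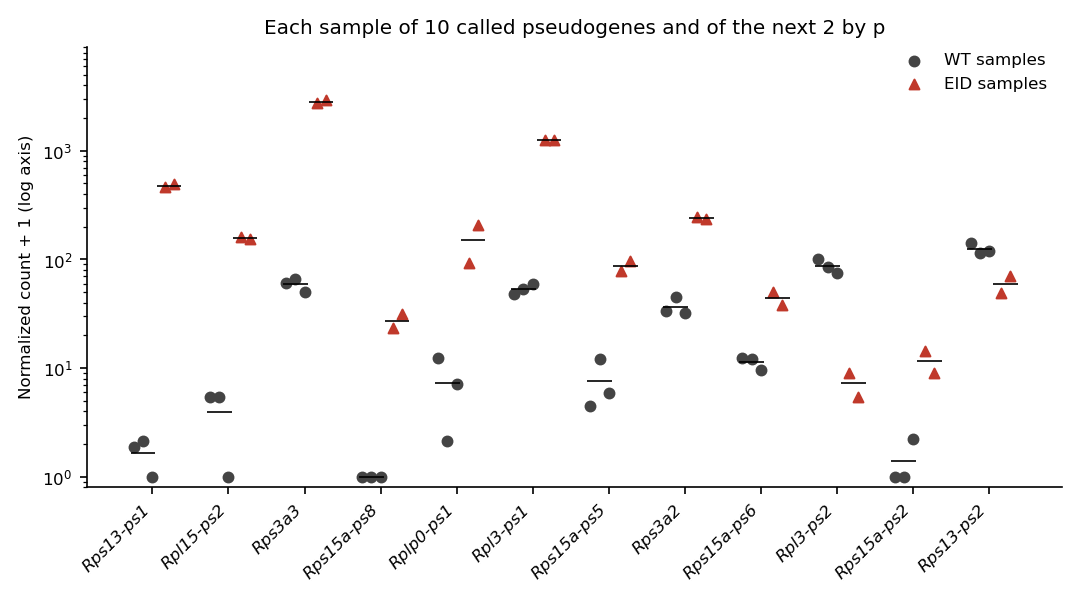
Normalized count plus 1 (log axis) in each of the 3 WT samples (circles) and 2 EID samples (triangles) for 10 of the 11 pseudogenes called between genotypes and for Rps15a-ps2 and Rps13-ps2, with bars at the means. The EID samples lie apart from the WT samples for each of the 12, above them for 10 and below them for Rpl3-ps2 and Rps13-ps2.

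Patterns of presence and absence were described with reads recovered from the normalized counts. A pseudogene was taken as off in a genotype when each of its samples held at most 3 reads, and as on when each held more. In this sense 5 of the 99 were on in EID and off in WT, a pattern shown by 1.03% of all genes tested. In the other direction, 1 was on in WT and off in EID, beside 0.336% of all genes tested. At most 3 reads is at most 3.73 normalized counts, under the level rule of 5. Each of these pseudogenes therefore met the rule only through the genotype where it was on, so nothing is drawn from these counts. The 5 included Rps13-ps1, Rps15a-ps8, Rps15a-ps2 and Rpl34-ps1. Of the 5, only Rps15a-ps8 had no read at all in WT. Rpl34-ps1 was close to the limit, with 6 reads over the WT samples and 14 over the EID samples, and a log2 fold change of 1.27 that did not pass the test (adjusted p = 0.29 by limma). The 1 in the other direction was Rpl31-ps14, with 8.84, 4.49 and 7.46 normalized counts in WT and 0.894 and 2.69 in EID, which did not pass it either (adjusted p = 0.24 by limma). Rpl34 and Rpl31 encode large subunit proteins. The pattern thus covers differences from 2 reads against 1067 to differences that did not pass the test.

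None of the most abundant pseudogenes outside these families was called. Rpl14-ps1, in an intron of Trpm4 on the opposite strand, had 1441, 1477 and 1239 normalized counts in WT and 1341 and 1362 in EID. Rpl38-ps2 had 914, 990 and 802 in WT and 843 and 883 in EID, and both overlapped between genotypes. Every 50-base word of Rpl38-ps2 occurs in Rpl38 mRNA, and its mean level per kilobase was 54.3% of that of Rpl38 in WT and 55.1% in EID, so its counts cannot be told apart from those of the coding gene by sequence within the annotated copy. Rpl37rt, a transcribed copy of the large subunit gene Rpl37, is the only one of the 98 with a coding match that has more than 1 exon. It had 289, 301 and 259 in WT and 218 and 221 in EID. Its genotypes did not overlap, and 15.9% of all genes tested were lower in EID in this way. The log2 fold change of -0.36 did not pass the test (adjusted p = 0.22 by limma). Rps4l, a transcribed and diverged copy of Rps4x with 79.7% identity, varied more within WT than any other with a WT mean of at least 20. It had 171, 369 and 424 normalized counts in WT and 317 and 261 in EID, a coefficient of variation of 41.5% in WT, beside a median of 12.4% over the 36 such pseudogenes. Rps24-ps3, Rps23-ps1, Rpsa-ps10, Rpl19-ps11 and Rps16-ps2 lay between 101 and 233 normalized counts in every sample, and none was called.

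Of the 88 that were not called, 78 had a log2 fold change of less than 1 in size, 62 were negative and 26 positive, and the range was -1.54 to 3.13. Without the 11 called pseudogenes, the summed level of the rest was 5096, 5292 and 4652 normalized counts in WT and 4607 and 4650.1 in EID. With them it was 5371, 5567 and 4884 in WT and 9744 and 10154 in EID, and since the calls chose which copies to leave out, the change in the sum follows from that choice. Rpsa, the gene of a small subunit protein that also occurs as a laminin receptor, had as many copies among the 99 as Rps15a. Of its 7 copies, none was called by limma, edgeR or DESeq2 and none had an unadjusted p under 0.05. Of them 3 had a positive and 4 a negative log2 fold change, and the values ran from -0.41 to 0.38. Counting all pseudogenes, 20 were higher in both EID samples than in every WT sample and 18 were lower, beside 16.7% and 15.9% of all genes tested.

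Likeness to the coding gene was set beside the calls. The median identity was 98.7% for the 11 called and 98.8% for the others with a match, and the median share of 50-base words found in transcripts of the coding gene was 55.2% and 52.9%. The range among the called was wide, from 4.73% of words for Rps15a-ps8 to 91.4% for Rpl3-ps1. None of the 11 identical copies was called by limma or edgeR, 1 was by DESeq2, and 1 had an unadjusted p under 0.05. By position, 5 of the 11 called copies were intergenic and 6 lay in introns, beside 65 and 32 of all 99. The host genes included Tcf12, Pde4d, Lrrc8d and Nudcd3, and these 4 were tested and not called by limma, edgeR or DESeq2, with 0 at an unadjusted p under 0.05. Their log2 fold changes ran from -0.23 to 0.03. Flg, an epidermal gene that spans Rplp0-ps1, was at 0 in every sample.

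**Figure D3:**
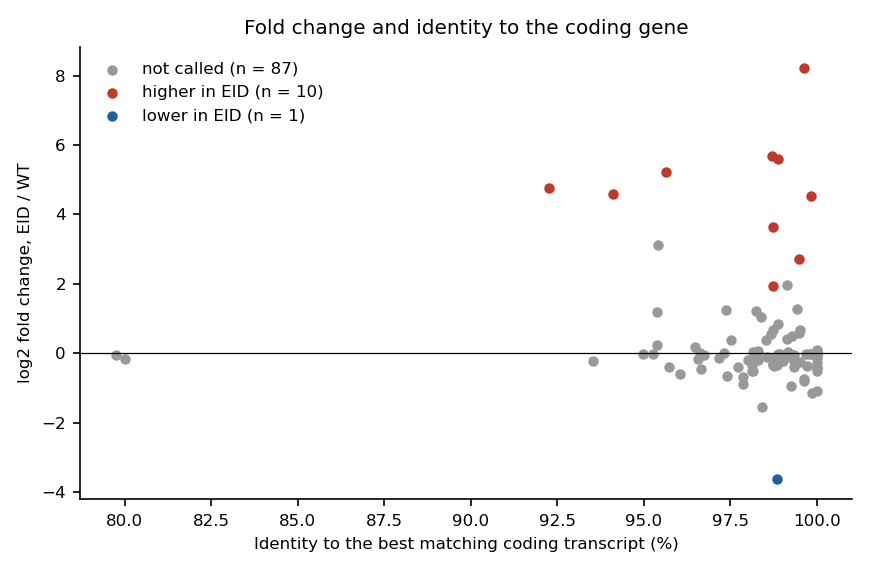
Log2 fold change of EID over WT (y axis) against the identity to the best matching coding transcript in percent (x axis) for the 98 pseudogenes with a match, coloured by the call. The 11 called copies span 92.2% to 99.8% identity, a range shared with most of the uncalled copies.

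The coding genes were compared in the same samples. Of 85 genes for cytosolic ribosomal proteins, 84 were tested, 3 were called lower, and 0 were called higher by limma, edgeR or DESeq2 (1 at an unadjusted p under 0.05), beside 1.14% lower and 1.09% higher of all genes tested. The log2 fold change was negative in 82 of the 84, beside 8698 of the 18156 genes tested, and their median was -0.16. Rpl30 was lowest, with 6511, 6566 and 5455 normalized counts in WT and 2604 and 3087 in EID, a log2 fold change of -1.12 ± 0.11 (SE, adjusted p = 0.0059 by limma). Rplp0 is described above, and Rps3a1 had 16244, 16151 and 13511 in WT and 9383 and 9667 in EID, with a log2 fold change of -0.68 ± 0.09 (SE, adjusted p = 0.020 by limma). The calls of Rplp0 and Rps3a1 were lost without the first or the second WT sample, and those of all 3 without either EID sample, with adjusted p of up to 0.19 for Rplp0 and Rps3a1 and 0.073 for Rpl30. All 7 coding genes behind the called copies had a negative log2 fold change, with a median of -0.29, beside -0.15 for the 43 tested coding genes whose copies among the 99 were not called. Of 25 genes for ribosome assembly and RNA polymerase I, 24 were found and tested, and 0 of them were called by limma, edgeR or DESeq2 or had an unadjusted p under 0.05. Their log2 fold changes ran from -0.16 to 0.21.

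The normalized counts of each coding gene and of its tested copies were then added, with copies of any symbol whose best coding match it was. For Rps3a1, 7 copies held 1.09% to 1.26% of the family total in WT and 24.5% and 25.1% in EID. For Rplp0, 6 copies held 0.675% to 0.752% in WT and 15.0% and 35.8% in EID. For Rpl3, 5 copies held 1.15% to 1.26% in WT and 12.5% and 11.98% in EID. In each of these families the copies held a larger share in both EID samples, and the coding gene was lower in both EID samples than in every WT sample. The latter was also so for 43 of the 84 tested ribosomal protein genes and for 15.9% of all genes tested. The family total was 0.818 of WT for Rps3a1, 0.694 for Rplp0 and 0.830 for Rpl3, beside 0.622, 0.524 and 0.738 for the coding gene alone. For Rpl15 the coding gene was at 0.916 of WT and the total, with 10 copies, at 1.01. For Rps13 the coding gene was at 0.859 and the total, with 3 copies, at 0.929, and the copies held 1.93% to 2.31% in WT and 9.10% and 10.01% in EID. For Rps15a, with 7 copies, the values were 0.826 and 0.848, and the copies held 0.803% to 0.816% in WT and 3.31% and 3.53% in EID. Rpl30 was nearest to Rps15a in the share of its copies. Its 5 copies held 0.594% to 0.834% in WT and 2.90% and 2.35% in EID, none of them was called by limma, edgeR or DESeq2 (2 at an unadjusted p under 0.05), and its total was at 0.470 of WT. These sums have no test. Apart from Rpl30, the families were chosen by the calls, so a larger share of copies in EID follows from that choice.

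**Figure D4:**
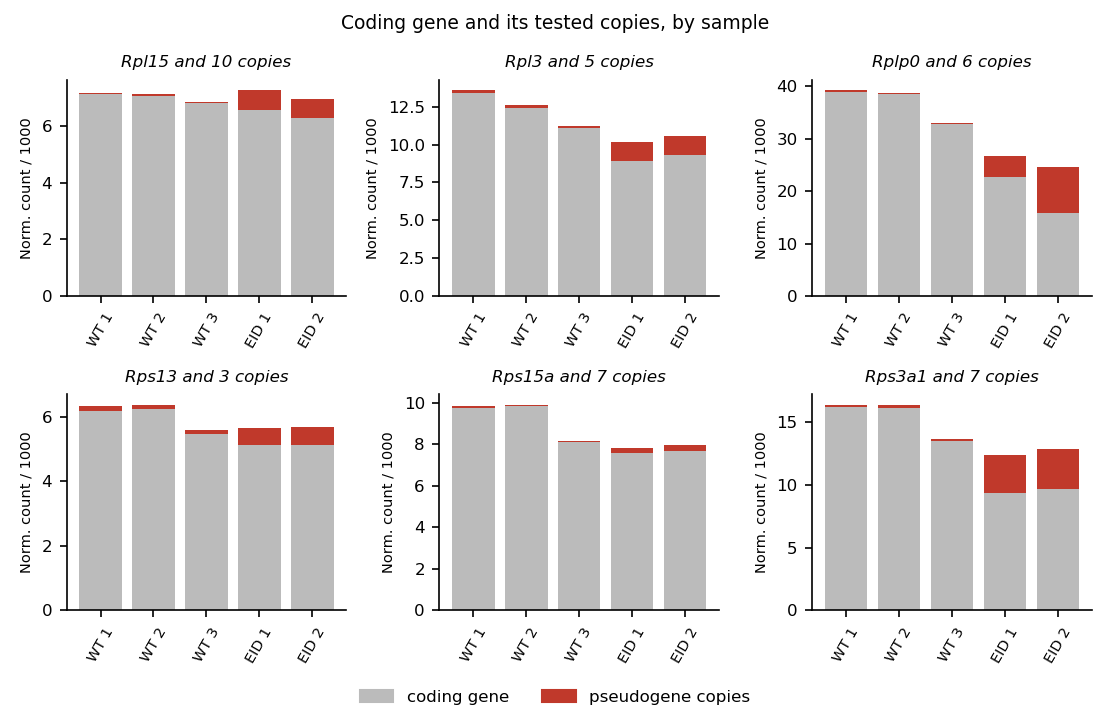
Stacked bars of normalized counts divided by 1000 (y axes start at 0 and differ between panels) for 6 of the coding genes behind the called copies (grey) and the sum of their tested copies (red) in each WT and EID sample. The red part is close to invisible in WT and reaches 35.8% of the total for Rplp0 in the second EID sample.

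Copies with other symbols were compared with the 99. Among pseudogenes with Gm or similar symbols, 191 tested ones had a ribosomal protein gene as their best coding match, and 15 of them were called higher and 0 lower by limma. Neither edgeR nor DESeq2 called one lower, and 6 were lower at an unadjusted p under 0.05. Of the 24 that are copies of the 7 coding genes above, 13 were called higher, and of the 167 copies of other ribosomal protein genes, 2 were, beside 1.09% of all genes tested. Of the 13, 7 were under 5 normalized counts in every WT sample and were tested only because of their EID values, so nothing is drawn from these counts. The 13 included 7 copies of Rpl15 and 5 of Rplp0. Among the copies of Rpl15, Gm10020 had 12.4, 13.5 and 4.97 normalized counts in WT and 199 and 191 in EID, and Gm10224 had 22.1, 21.3 and 37.3 in WT and 197 and 183 in EID. Gm10020 differs from Rpl15 at 2 bases, and both copies were, like Rpl15-ps2, apart from their WT values in each EID sample. None of the 5 such copies of Rps3a1 and none of the 3 of Rpl3 was called by limma, edgeR or DESeq2 or had an unadjusted p under 0.05.

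**Figure D5:**
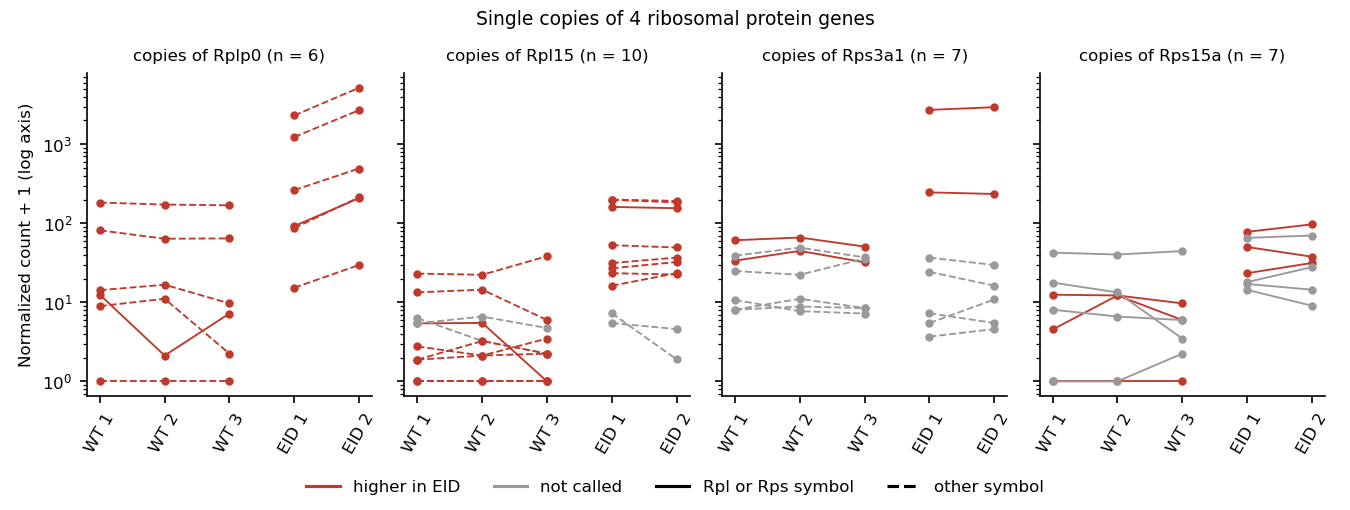
Normalized count plus 1 (log axis) of each tested copy of Rplp0, Rpl15, Rps3a1 and Rps15a in the 5 samples, with lines joining samples of 1 genotype, red for copies called higher in EID and broken lines for copies without an Rpl or Rps symbol. All 6 copies of Rplp0 are higher in the second EID sample than in the first, while Rps3a3 and Rps3a2 are the 2 of the 7 copies of Rps3a1 that were called.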

How the data were processed

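Poly(A) RNA libraries were stranded and sequenced as read pairs of 50 bases. Alignment to GRCm38 was with STAR 2.5.1b and counting with featureCounts 1.4.6 (reverse stranded, unique alignments only). The authors deposited counts normalized with DESeq2 1.34.0 (a signal per gene, not raw counts). Neither the labels nor the methods say whether mice or cultures were pooled. The annotation is stated as an older Ensembl release, while 54165 of the 54232 gene identifiers matched GENCODE M21, which supplied symbols, biotypes and positions. Values were whole multiples of 1 read in each sample (100% within 0.01), so reads were recovered, giving 35021856 to 49381544 per sample; this depth limits precision for low pseudogenes, and intervals cover counting error only. No sample column was left unmapped.

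The members and gene lists were chosen with earlier results of these data known. Genes whose normalized count was 5 or more in any sample were fitted on log2(value + 1) with limma 3.58.1 (trended variance, Benjamini-Hochberg adjustment); fold changes are on that scale and understate those of low genes. edgeR 4.0.16 and DESeq2 1.42.0 on the recovered reads were alternatives. Coding genes were found with blastn 2.17.0, and copies were aligned to 1 transcript of each with Biopython 1.88. Genes were named if on in 1 genotype only, among the 20 largest called differences or the 10 highest means, at the edge of the level rule, or present in only some samples of a genotype, with their coding genes. The copies with Gm symbols, Rps13-ps4, the further copies of Rps15a and Rpsa, and Rpl30 were chosen after their values were seen, as were the stretches of Rpl3, Rps3a1, Rplp0 and Rpl15. Replicates were not duplicates. Some called copies are not reported here.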

Additional observations from a re-analysis of the deposited data

How the results depend on the processing

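Rps13-ps1, Rps3a3, Rpl3-ps1 and Rpl3-ps2 were called in the same direction in the main fit and in all 15 alternatives. Among the others named, Rps3a2 and Rps15a-ps8 lost the call without either EID sample. Rpl15-ps2 and Rps15a-ps5 lost it there, with no filter and without a trend. Rplp0-ps1 was called in 10 of 16 fits and Rps15a-ps6 in 9. Rps15a-ps2, not called in the main fit, was called with a pseudocount of 5, where 11 pseudogenes were called higher. The 404 genes called became 155 with no filter on low values, 144 with limma without a trend and 961 with DESeq2, and ran from 54 to 349 when 1 sample was left out. The 10 pseudogenes called higher became 5 with no filter and 6 without a trend, and 3 to 9 with a sample left out, 3 without either EID sample. The 1 called lower became 2 under quantile normalization and under DESeq2, where Rps13-ps2 joined Rpl3-ps2, and stayed at 1 with any sample left out. The 3 ribosomal protein genes called became 1 with no filter, 0 without a trend and 5 with DESeq2, where Rpl3 and Rpl11 joined. With a WT sample left out they became 1 to 4, and Rpl3 joined without the third WT sample. The 6 on or off pseudogenes became 1 with a limit of 0 reads, Rps15a-ps8, 8 with 10 reads, and 6 to 8 with a sample left out. The cause of these changes was not tested. The replicate numbers as a block gave 224 genes, 8 higher and 1 lower pseudogene and 3 ribosomal protein genes. In that fit the third WT sample stands alone. The differences between numbers correlated at -0.20 over 15107 genes. The labels do not say whether samples with the same number share a preparation, and this correlation cannot decide it.

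Of 582 alternative values for 39 single genes, 525 kept direction and call, 44 lost the call, 6 gained it and 7 changed sign, none of them called. Rps4l turned to 0.19 under the replicate block and without WT replicate 3, 0.10 without WT replicate 2 and 0.08 without EID replicate 2. With 1 sample left out, Rps4l ran from -0.46 to 0.19, Rpl14-ps1 from -0.11 to 0.016, Rpl38-ps2 from -0.14 to 0.012 and Rpsa from -0.14 to 0.024, the positive ends of the last 3 without WT replicate 2, WT replicate 2 and EID replicate 1. With 2 EID samples, small differences could not be detected, and 53 pseudogenes stayed under 20 normalized counts.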

Other observations

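Rpl11 is a large subunit gene with no copy among the 99. Its copies included the other 2 of the 15 called higher among Gm and similar copies of ribosomal protein genes. Gm10036 had 23.0, 26.9 and 22.4 normalized counts in WT and 902 and 1048 in EID, with a log2 fold change of 5.28 ± 0.17 (SE), and Gm12901 had no read in WT and 14.3 and 10.8 normalized counts in EID. Both were past the threshold by limma with Benjamini-Hochberg adjustment, and 5 copies of Rpl11 were tested. Gm12901 met the level filter through its EID values alone.

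Of the 941 remaining tested pseudogenes, those whose best coding match is not a ribosomal protein gene or that had none, 60 were called higher and 0 lower by limma. Neither edgeR nor DESeq2 called one lower, and 20 were lower at an unadjusted p under 0.05. Over all genes tested, 1.09% were called higher and 1.14% lower. Of the 60, 30 were under 5 normalized counts in every WT sample and met the level filter through EID alone. Of the 941, 55 were on in EID and off in WT while 5 were on in WT and off in EID, beside 1.03% and 0.336% of all genes tested, and genes on in EID and off in WT meet the level filter through EID alone, so nothing is drawn from these counts. Among coding genes for ribosomal proteins, the 2 with a positive log2 fold change were Rpl36al, at 0.07, and Rpl39l, a paralog known from testis, which had 1.77, 4.49 and 7.46 normalized counts in WT and 9.84 and 17.9 in EID and did not pass the test (adjusted p = 0.29 by limma).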
